A study of Mus musculus with 6 samples.

Results

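The serotonin neuron genes examined here were 10 transcripts, taken by gene symbol from a table of 18058 genes measured in whole brainstem: Tph2, Slc6a4, Fev, Lmx1b, Gata3, Maob, Htr1a, Htr1b, Htr2c and Htr5b. All 10 were present in the table and all 10 passed the filter on low values. Total RNA came from snap-frozen brainstems of naive 1-month-old mice, with 3 wild type samples (WT, the C57BL/6J strain) and 3 Rag1-/- samples. Rag1 encodes part of the enzyme that cuts DNA beside antigen receptor gene segments before they are joined, and animals without it have no mature T or B cells. The study compared the genotypes to look for brainstem transcripts that could bear on the growth of implanted human glioma cells. No label gives the sex of the mice. Values are in CPM, the reads of a gene scaled to the total of its library.

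Serotonin is made in the brain by a small set of neurons in the raphe nuclei, which lie along the midline of the midbrain, pons and medulla. These neurons convert tryptophan to serotonin, load it into vesicles, release it over most of the brain and spinal cord, and take it back up through a plasma membrane transporter. A network of transcription factors that includes Fev (also called Pet-1), Lmx1b and Gata3 sets up and maintains their identity. Serotonin then acts on receptors that sit partly on the serotonin neurons themselves, as autoreceptors, and partly on their many target cells.

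Before the members, the libraries were compared with their labels. Estimated depth was between 3.16e+07 and 4.64e+07 reads per library, so that a level of 3 reads equals between 0.0646 and 0.0950 CPM, and no member was at or under that level in any library. Rag1 transcripts had CPM values of 0.236, 0.388 and 0.115 in WT replicates 1, 2 and 3 and 2.60, 4.02 and 2.90 in replicates 1, 2 and 3 labelled Rag1-/-. They were therefore higher where a knockout label stands, so values of these samples are given as found under the Rag1-/- label, and each direction rests on that label. Xist, the X-linked RNA of female cells, reached 172 and 177 CPM in WT replicates 1 and 2. It did not exceed 2.93 CPM in the other 4 libraries, so that WT replicate 3 was the only WT library with low Xist. Ddx3y, a gene on the Y chromosome, ran the other way. Its level stayed at or under 0.283 CPM where Xist was high and lay between 45.2 and 56.2 CPM in the other 4 libraries. WT replicates 1 and 2 thus had a female pattern, and WT replicate 3 and all libraries labelled Rag1-/- a male pattern. Sex was therefore partly confounded with genotype in every comparison of the groups. Markers of neighbouring tissue also differed between libraries. All 5 cerebellar markers (Gabra6, Cbln3, Fat2, Pcp2 and Car8) had their 2 highest values in WT replicate 3 and in replicate 2 labelled Rag1-/-, with summed levels of 339 and 116 CPM against 31.3 to 43.5 CPM elsewhere. The 6 Hox genes of the caudal hindbrain summed to 1.55 CPM in replicate 2 labelled Rag1-/- and to between 8.57 and 33.1 CPM in the others.

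The genes that define serotonin neurons most narrowly were Tph2, Slc6a4 and Fev, and their start regions are shown because these 3 members moved together across the libraries. The deposited start sites of all 3 are identical to those of the RefSeq promoter table, on build GRCm38.p6, although the RefSeq gene record of Fev, which covers all its transcripts, has other bounds. The 150 bases before each start are printed 5′ to 3′ on the strand of the gene, from chr10:115185023-115185172 on the minus strand for Tph2, chr11:76998447-76998596 on the plus strand for Slc6a4 and chr1:74885409-74885558 on the minus strand for Fev. Capitals mark GGAA or its reverse complement TTCC, the core letters that ETS-family factors such as Fev bind.

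Tph2: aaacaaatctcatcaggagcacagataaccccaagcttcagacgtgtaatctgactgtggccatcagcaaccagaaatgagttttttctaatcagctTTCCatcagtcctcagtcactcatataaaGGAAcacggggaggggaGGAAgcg

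Slc6a4: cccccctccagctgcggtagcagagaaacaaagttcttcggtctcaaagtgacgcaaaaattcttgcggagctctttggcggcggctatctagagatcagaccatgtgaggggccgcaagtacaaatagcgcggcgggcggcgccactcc

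Fev: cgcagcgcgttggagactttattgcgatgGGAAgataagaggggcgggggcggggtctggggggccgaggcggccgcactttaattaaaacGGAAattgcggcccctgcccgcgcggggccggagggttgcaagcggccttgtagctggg

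The letters GGAA or TTCC occurred 3 times in the Tph2 window, 2 times in the Fev window and 0 times in the Slc6a4 window. They are common: 80.8% of 32851 RefSeq promoter windows of 150 bases hold at least 1 copy, with a median of 2. The longer CCGGAA or its reverse complement TTCCGG, held by 9.23% of windows, was in none of the 3. These matches describe the letters of the window and are no evidence of binding, and the window leaves out any element further upstream. Of the 10 members, 8 had an entry in the table, and Maob and Htr5b had none.

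**Figure D1:**
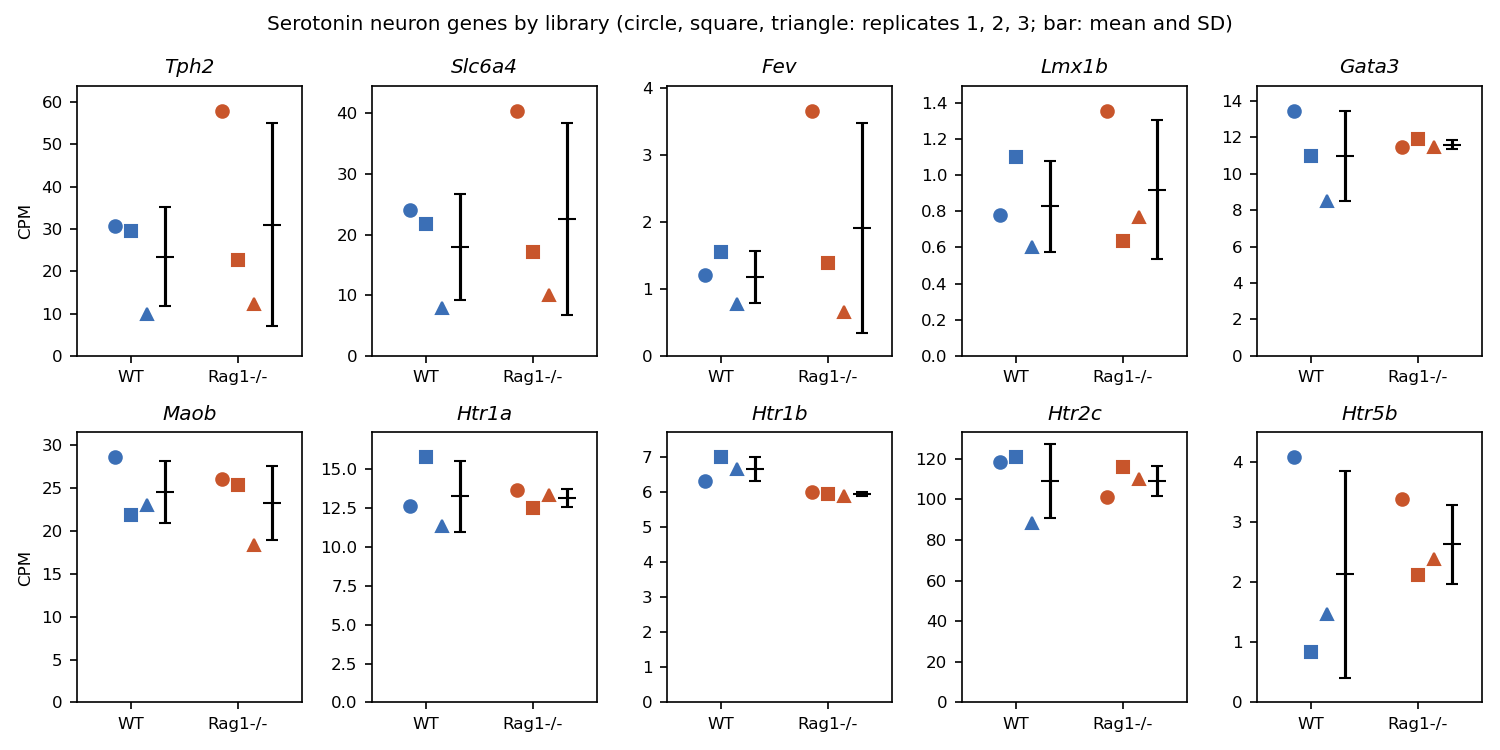
Levels of the 10 serotonin neuron genes in CPM (vertical axes, each from 0) in WT libraries (blue) and libraries labelled Rag1-/- (orange), with circles, squares and triangles for replicates 1, 2 and 3 and black bars for the mean and SD of 3 libraries. Tph2, Slc6a4 and Fev span 3.07-fold, 3.02-fold and 2.00-fold within WT and by wider margins under the Rag1-/- label, with replicate 1 labelled Rag1-/- the highest of the 6 libraries for each, while Htr1b spans only 5.88 to 6.99 CPM and is the single panel in which the genotypes do not overlap.

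Tph2 (chromosome 10, 115078641 to 115185022, minus strand) encodes tryptophan hydroxylase 2, the rate-limiting enzyme of serotonin synthesis in the brain. Its CPM values were 30.7, 29.6 and 10.002 in WT replicates 1, 2 and 3 and 58.0, 22.7 and 12.3 in replicates 1, 2 and 3 labelled Rag1-/-. Each genotype thus held a library with a low level, WT replicate 3 and replicate 3 labelled Rag1-/-, and the groups overlapped. The means were 23.4 ± 11.6 CPM in WT and 31.0 ± 23.9 CPM under the Rag1-/- label (SD, n = 3 each). The log2 fold change on log2(CPM + 0.1) was 0.28, with a standard error of 0.57 and a 95% interval from -1.03 to 1.58 (adjusted p = 0.871 by limma-trend). That interval allows anything from 0.491 to 2.99 times the WT level.

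Slc6a4 (chromosome 11, 76998597 to 77032343, plus strand), the serotonin transporter that takes released serotonin back into the neuron, gave the same order of libraries as Tph2. Its levels were 24.1, 21.8 and 7.96 CPM in WT replicates 1, 2 and 3 and 40.4, 17.1 and 10.1 CPM in replicates 1, 2 and 3 labelled Rag1-/-. It gave a log2 fold change of 0.25 (standard error 0.53, 95% interval -0.96 to 1.45, adjusted p = 0.877 by limma-trend).

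Fev (chromosome 1, 74881509 to 74885408, minus strand), the ETS factor that marks serotonin neurons from their birth onward, was at 1.204, 1.55 and 0.776 CPM in WT and at 3.67, 1.39 and 0.655 CPM under the Rag1-/- label. Replicate 1 labelled Rag1-/- was again the highest and the 2 libraries numbered 3 were again the lowest. For Fev the log2 fold change was 0.39 (standard error 0.51, 95% interval -0.78 to 1.56, adjusted p = 0.788 by limma-trend). Its lowest library rested on about 23 reads, for which counting error alone gives a CV of 20.9%. The CV was 33.0% among the WT libraries and 82.4% among the libraries labelled Rag1-/-.

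The direction of these 3 differences rested on single libraries. Without replicate 1 labelled Rag1-/-, the log2 fold change was -0.32 for Tph2, -0.29 for Slc6a4 and -0.22 for Fev. Without WT replicate 3, it was -0.25 for Tph2 and -0.26 for Slc6a4, and 0.14 for Fev. With the 2 libraries of high cerebellar markers left out together, Tph2 was at -0.17, Slc6a4 at -0.18 and Fev at 0.20. With a term for Xist over 100 CPM, which sets WT replicate 3 alone against the Rag1-/- label, Fev was at 0.89, Tph2 at 1.33 and Slc6a4 at 1.25 (adjusted p = 0.353 for Tph2 and 0.334 for Slc6a4 by limma-trend). The sign of Tph2 and Slc6a4 thus turned with either of 2 single libraries left out, and that of Fev with 1. In bulk tissue, fewer serotonin neurons in a sample and less RNA per neuron cannot be told apart.

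Tph2, Slc6a4, Fev and Htr5b had the widest spans over the 6 libraries among the 10 members. The highest Tph2 level was 3.07 times the lowest within WT, 4.70 times within the libraries labelled Rag1-/- and 5.80 times over all 6 libraries. Slc6a4 spanned 3.02-fold within WT, 4.0002-fold under the Rag1-/- label and 5.08-fold over all 6. Fev spanned 2.00-fold within WT and 5.60-fold both under the Rag1-/- label and over all 6, whereas the 4.86-fold span of Htr5b lay within WT. Of 7880 genes averaging 10 to 100 CPM, Tph2 and Slc6a4 among them, the median gene spanned 1.16-fold. With the gene itself counted, 10 genes (0.127%) spanned at least as much as Tph2 and 12 at least as much as Slc6a4. The lowest Tph2 library held about 348 reads, a counting CV of about 5.36%.

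**Figure D2:**
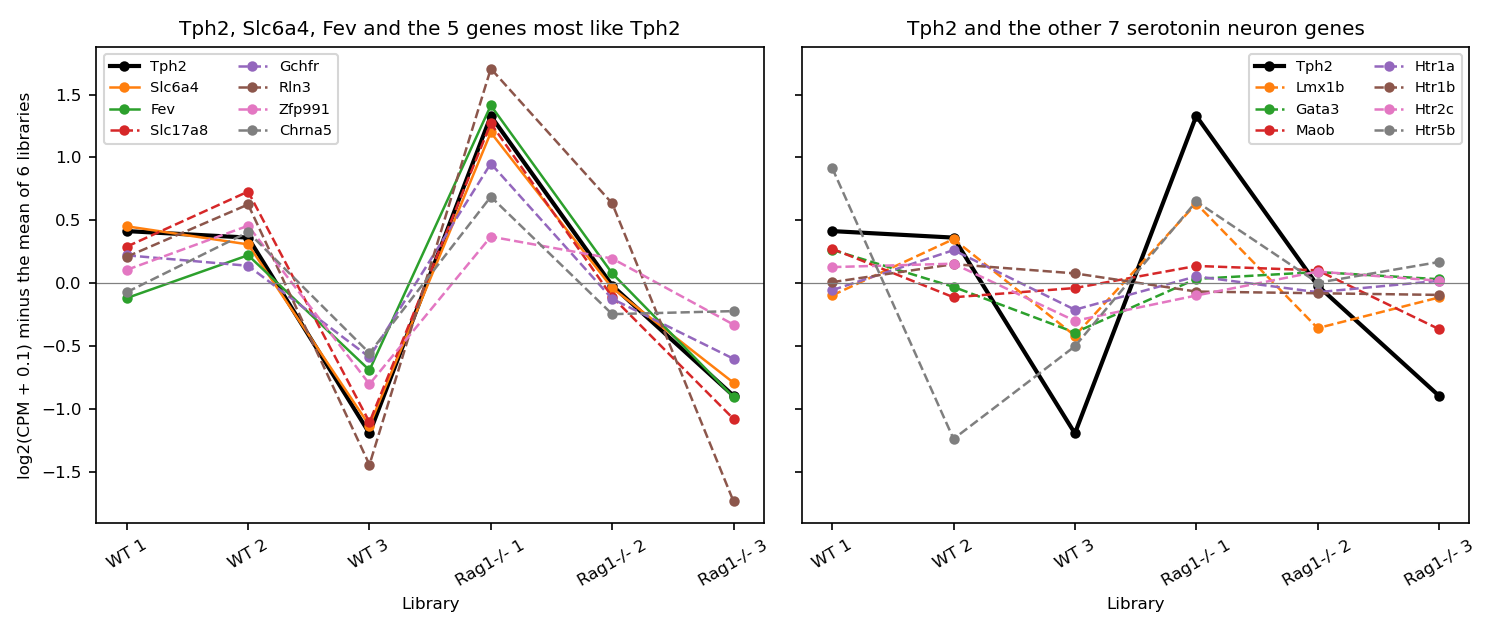
Level of each gene in the 6 libraries, as log2(CPM + 0.1) minus the mean of the 6 for that gene, with Tph2 in black in both panels and lines joining the points of a gene only as a guide. On the left, Slc6a4, Fev and the 5 other genes closest to Tph2 are all below their mean in WT replicate 3 and above it in replicate 1 labelled Rag1-/-, the highest library for each but Zfp991, which peaks in WT replicate 2; on the right, Gata3, Maob, Htr1a, Htr1b and Htr2c stay within 0.4 of their mean in each library.

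The proportion of Slc6a4 to Tph2 was nearly fixed while their levels moved, and that of Fev to Tph2 varied more. The ratio of Slc6a4 to Tph2 in CPM was 0.784, 0.735 and 0.796 in WT replicates 1, 2 and 3 and 0.697, 0.753 and 0.820 in replicates 1, 2 and 3 labelled Rag1-/-, a span of 1.18-fold. Its mean was 0.772 ± 0.0322 (SD, n = 3) in WT and 0.757 ± 0.0614 (SD, n = 3) under the Rag1-/- label, and the groups overlapped (exact two-sided permutation test, p = 0.7). The ratio of Fev to Tph2 lay between 0.0392 and 0.0776 and spanned 1.98-fold, about as wide as the span of Fev itself within WT. Fev rested on fewer reads than the other 2 genes. Over the ratios of all 9 other members to Tph2, the exact permutation p lay between 0.6 and 1, and every value was 1 after adjustment over the 9. The smallest p that 3 samples against 3 allow is 0.1.

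Likeness to Tph2 was then ranked over 14032 other genes averaging at least 1 CPM, by the root mean square difference between log2 profiles over the 6 libraries after each was centred. A gene at the same level in every library would stand at 0.85 on this scale, and the median gene stood at 0.86. Slc6a4 was the closest of all at 0.078 and Fev the third at 0.31. The 5 closest genes outside the members were Slc17a8 at 0.18, Gchfr at 0.34, Rln3 at 0.49, Zfp991 at 0.51 and Chrna5 at 0.51. Slc17a8 encodes the vesicular glutamate transporter VGLUT3, Gchfr the feedback regulator of the enzyme that makes the tetrahydrobiopterin cofactor of tryptophan hydroxylase, Rln3 the peptide relaxin-3 and Chrna5 a nicotinic receptor subunit. Zfp991 is a zinc finger gene with near-identical copies, so that its reads are uncertain. The values describe 6 libraries, and the genes were chosen by them.

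Slc17a8 (chromosome 10, 89574020 to 89621249, minus strand) had CPM values of 5.38, 7.32 and 1.98 in WT replicates 1, 2 and 3 and 10.7, 4.06 and 2.02 in replicates 1, 2 and 3 labelled Rag1-/-. Its lowest values fell in the 2 libraries that were also lowest for Tph2. Rln3 spanned the widest range of the 5, from 0.968 CPM in replicate 3 labelled Rag1-/- to 11.5 CPM in replicate 1 of that label. Neither differed between the genotypes beyond the spread of the libraries (adjusted p = 0.979 for Slc17a8 and 0.869 for Rln3 by limma-trend).

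The catecholamine markers spread less. Th, tyrosine hydroxylase of the catecholamine neurons, lay between 28.5 and 34.5 CPM in the 6 libraries, and the summed level of the 6 catecholamine markers spanned 1.19-fold. The 6 general neuron markers spanned 1.14-fold in sum and the 6 astrocyte markers 1.103-fold. WT replicate 3, the lowest library for Tph2, had the highest cerebellar sum, and replicate 3 labelled Rag1-/-, the next lowest, was at 43.5 CPM in that sum. Caudal Hox genes were high in replicates 1 and 3 labelled Rag1-/- (33.1 and 28.7 CPM). The part of the dissection in the Tph2 levels was not tested.

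**Figure D3:**
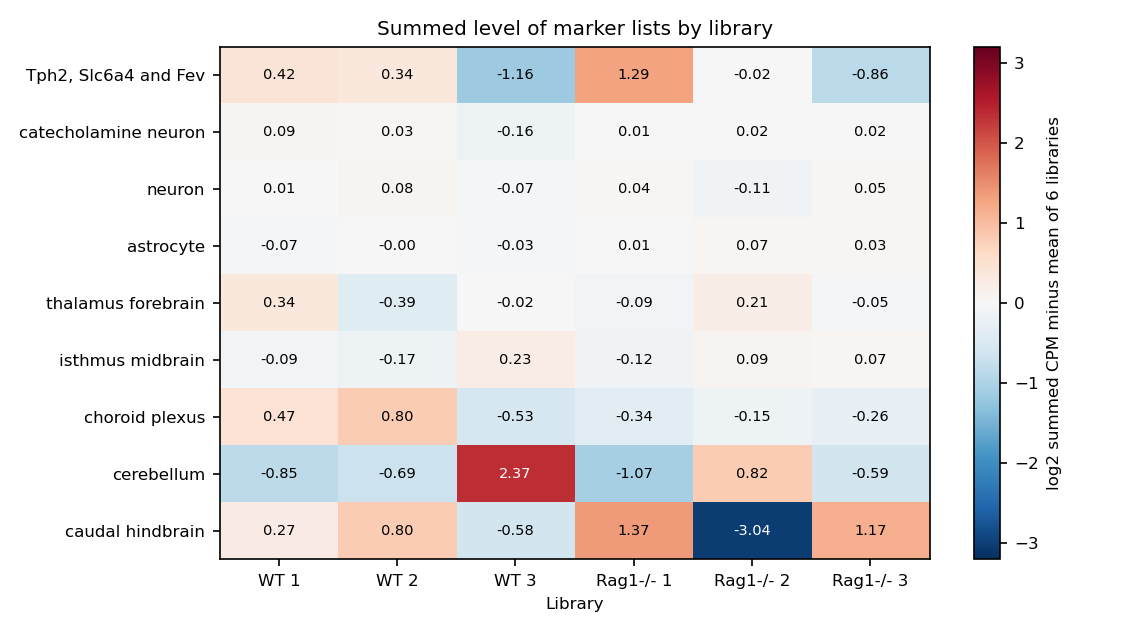
Summed CPM of marker lists in each library, on a log2 scale with the mean of the 6 libraries of each list subtracted (colour and printed value). Tph2, Slc6a4 and Fev range from -1.16 in WT replicate 3 to 1.29 in replicate 1 labelled Rag1-/-, while the catecholamine, neuron and astrocyte rows stay between -0.16 and 0.09, and cerebellar and caudal hindbrain rows vary most.

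The other transcription factors were steadier. Lmx1b (chromosome 2, 33564536 to 33640511, minus strand), a LIM homeodomain factor needed for serotonin neurons to differentiate, was at 0.779, 1.099 and 0.604 CPM in WT and at 1.36, 0.634 and 0.769 CPM under the Rag1-/- label. Its lowest and highest values fell in the same libraries as those of Tph2, over a span of 2.25-fold, and its lowest library held about 20 reads. The log2 fold change was 0.11 (standard error 0.30, adjusted p = 0.909 by limma-trend), and it was -0.18 without replicate 1 labelled Rag1-/- and -0.073 without WT replicate 3.

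Gata3 (chromosome 2, 9857078 to 9878600, minus strand), a zinc finger factor of caudal serotonin neurons, also serves other brainstem neurons and T cells. It was at 13.5, 10.97 and 8.51 CPM in WT and at 11.5, 11.9 and 11.4 CPM under the Rag1-/- label. The WT libraries enclosed all 3 libraries of the other label. Gata3 had a log2 fold change of 0.10 (standard error 0.14, 95% interval -0.23 to 0.43, adjusted p = 0.802 by limma-trend), and it was -0.066 without WT replicate 3, 0.26 without WT replicate 1 and 0.44 with the term for Xist (unadjusted p = 0.0068, adjusted p = 0.142). Of the 6 T cell markers listed, 4 were in the table, and their sum lay between 0.733 and 1.61 CPM in WT and between 0.896 and 1.28 CPM under the Rag1-/- label. Cd3e did not exceed 0.144 CPM, Cd4 reached 0.661 CPM and Lck lay between 0.543 and 0.769 CPM. The part of T cells in the Gata3 level was not tested.

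Maob (chromosome X, 16709281 to 16817366, minus strand) encodes monoamine oxidase B, a mitochondrial enzyme that breaks down amines in serotonin neurons, histamine neurons and astrocytes. It was at 28.6, 21.9 and 23.1 CPM in WT and at 26.0, 25.4 and 18.4 CPM under the Rag1-/- label, so that the groups overlapped. Its log2 fold change was -0.083 (standard error 0.14, 95% interval -0.41 to 0.25, adjusted p = 0.843 by limma-trend), and it was 0.033 without WT replicate 1 and 0.079 without replicate 3 labelled Rag1-/-. Hdc, the enzyme that makes histamine, reached 15.6 CPM in WT replicate 3 against 2.08 to 5.75 CPM elsewhere, and the part of histamine neurons in the Maob level was not tested.

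Among the 4 receptors, Htr1b was the only member whose genotypes did not overlap. Htr1b (chromosome 9, 81631392 to 81632552, minus strand) encodes the inhibitory autoreceptor on serotonin axon terminals, which also sits on other terminals. It was at 6.32, 6.99 and 6.64 CPM in WT and at 5.996, 5.94 and 5.88 CPM under the Rag1-/- label. The mean was 6.65 ± 0.335 CPM (SD, n = 3) in WT and 5.94 ± 0.0557 CPM (SD, n = 3) in the other group, or -0.16 on the log2 scale (standard error 0.08, 95% interval -0.35 to 0.03). It was -0.092 after quantile normalization (unadjusted p = 0.302 by limma-trend) and -0.12 after scaling by the median of ratios (unadjusted p = 0.195). The unadjusted limma-trend p was 0.0888 and the adjusted p 0.492, and p was 0.1 in the exact two-sided permutation test, which can go no lower. Of all tested genes, 14.4% were likewise separated in the lower direction, so that 1 of 10 members is near the background share. In the higher direction 0 members and 3.98% of tested genes were separated. The median log2 fold change of all tested genes was -0.051. The deposited Htr1b model spans 1161 bases and is shorter than the gene in the RefSeq table.

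Htr1a (chromosome 13, 105443693 to 105448133, plus strand), the inhibitory autoreceptor on the cell bodies and dendrites of serotonin neurons that is also made by many target neurons, did not follow Tph2. It was at 12.6, 15.8 and 11.3 CPM in WT and at 13.6, 12.5 and 13.3 CPM under the Rag1-/- label. Means of 13.2 ± 2.28 and 13.1 ± 0.591 CPM (SD, n = 3 each) gave 0.0017 as log2 fold change (standard error 0.11, 95% interval -0.26 to 0.26, adjusted p = 0.996 by limma-trend). The interval allows from 0.836 to 1.199 times the WT level. The direction was negative without WT replicate 1 (-0.025), without WT replicate 3 (-0.10), and without replicate 1 or 3 labelled Rag1-/- (-0.025 and -0.0075).

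Htr2c (chromosome X, 146962513 to 147197277, plus strand), an excitatory receptor of many neurons and of the choroid plexus epithelium, was at 119, 121 and 88.2 CPM in WT and at 101, 116 and 110 CPM under the Rag1-/- label. WT replicate 3 was the lowest library and the groups overlapped (log2 fold change 0.010, standard error 0.11, 95% interval -0.25 to 0.27, adjusted p = 0.9796 by limma-trend). Without WT replicate 3 it was -0.14 (unadjusted p = 0.0467, adjusted p = 0.420), and with a term for Xist over 100 CPM it was 0.30 (unadjusted p = 0.0033, adjusted p = 0.108), a fit in which the genotype difference rests on WT replicate 3 as the only WT library with low Xist. The choroid plexus markers stood higher in the same WT libraries 1 and 2: 9 of 10 had their 2 highest values there, and their sum was 1006 and 1264 CPM against 503 to 652 CPM in the other 4. Their part in the Htr2c levels was not tested.

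Htr5b (chromosome 1, 121509773 to 121528465, minus strand), a receptor of restricted expression in the rodent brain, varied most among the receptors. It was at 4.08, 0.840 and 1.47 CPM in WT and at 3.38, 2.12 and 2.39 CPM under the Rag1-/- label. WT replicates 1 and 2 were the highest and lowest of all 6 libraries, although both had similar Tph2 levels. The log2 fold change was 0.55 (standard error 0.47, 95% interval -0.51 to 1.61, adjusted p = 0.665 by limma-trend). It was 1.14 without WT replicate 1 (unadjusted p = 0.0031, adjusted p = 0.443) and 0.067 without WT replicate 2.

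Levels of different genes were compared only per length, as CPM per kilobase of exon inside the deposited span. Htr2c led with a mean of 22.4 over 6 libraries, followed by Tph2 at 10.4, Maob at 9.92, Slc6a4 at 7.24 and Htr1b at 5.42. Tph2 was above Maob only in WT replicate 2 (11.3 against 9.08) and in replicate 1 labelled Rag1-/- (22.1 against 10.8). Gata3 at 3.51, Htr1a at 2.98, Htr5b at 1.23, Fev at 1.04 and Lmx1b at 0.722 were lower. The ranges over libraries of neighbours in this order overlapped, except between Htr1b and Gata3 and between Htr1a and Htr5b. The wide range of Tph2, from 3.81 to 22.1, overlapped that of Htr2c only through replicate 1 labelled Rag1-/-.

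**Figure D4:**
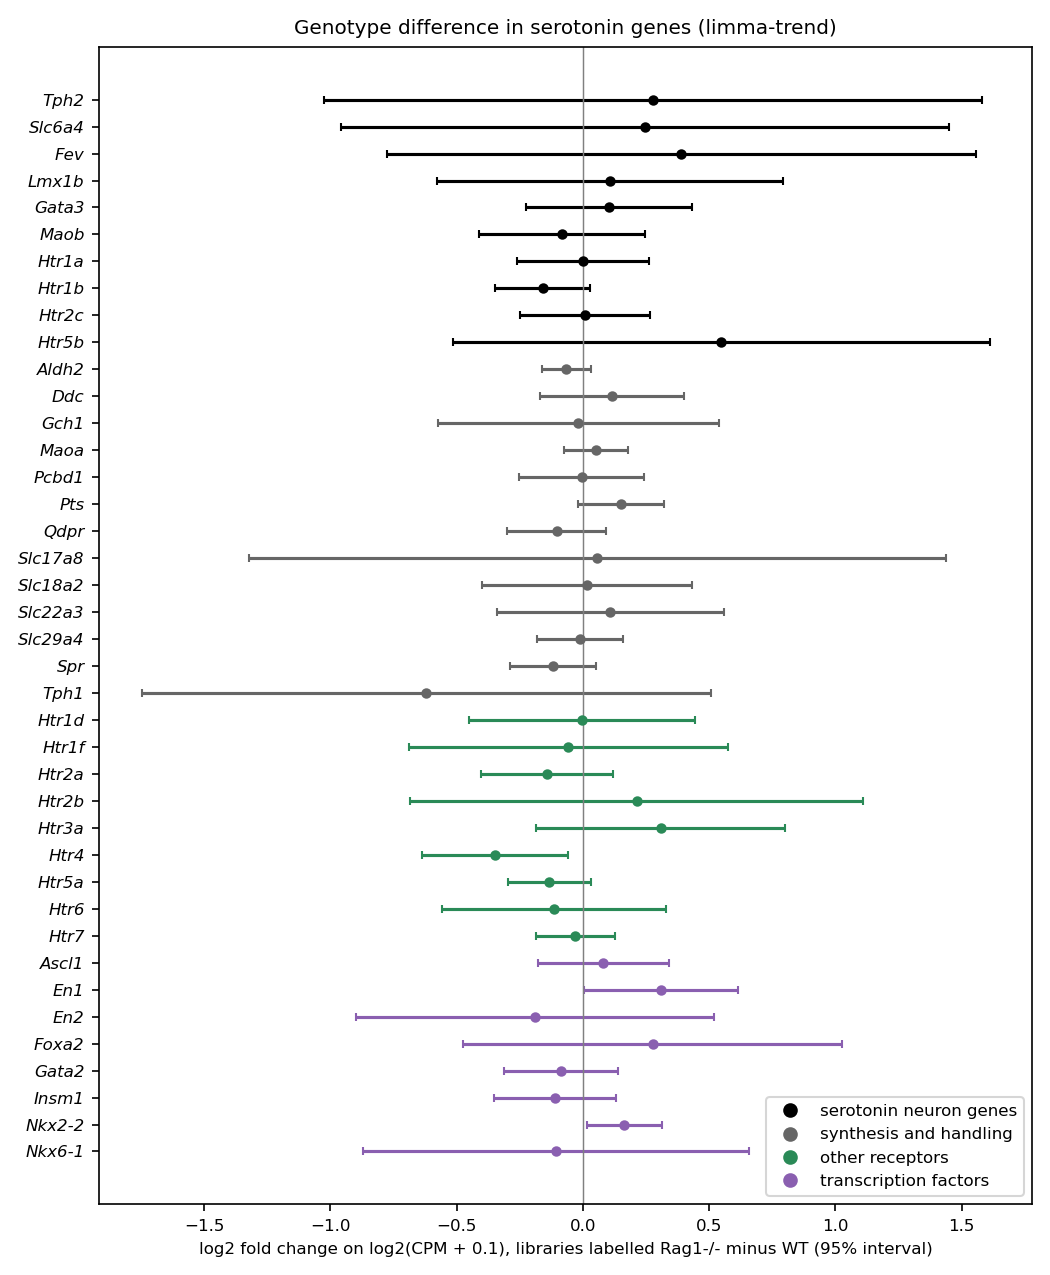
Log2 fold change on log2(CPM + 0.1), libraries labelled Rag1-/- minus WT, with 95% limma-trend intervals, for the 10 serotonin neuron genes (black) and 30 other genes of the serotonin pathway (grey for synthesis and handling, green for receptors, purple for transcription factors). All 10 members have intervals that include 0, widest for Htr5b, Tph2, Slc6a4 and Fev, and Htr4, Nkx2-2 and En1 are the genes whose interval does not.

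In the comparison of the genotypes across all genes, 0 of the 10 members had an adjusted p under 0.05 by limma-trend, where 0.0477% of 16762 tested genes did, and 0 had an unadjusted p of at most 0.05, where 11.6% did. The median log2 fold change of the members was 0.11, with 8 values above 0 and 2 below, against -0.051 over all tested genes. The median was -0.11 without WT replicate 3, -0.17 without replicate 1 labelled Rag1-/-, 0.20 without replicate 2 labelled Rag1-/- and 0.46 with the term for Xist. The intervals of Tph2, Slc6a4, Fev and Htr5b still included a level 2 times that of WT, whereas those of the other 6 did not.

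The wider pathway was described from lists of synthesis and handling genes, other receptors and transcription factors of the raphe lineage. Of 31 genes, 30 were in the table and tested, 0 had an adjusted p under 0.05 and 3 had an unadjusted p of at most 0.05, 1 of them lower (9.29% of all tested genes) and 2 higher (2.27%). The lower gene was Htr4, a receptor that raises cyclic AMP, at 3.82, 3.58 and 3.13 CPM in WT and 2.45, 2.85 and 2.90 CPM under the Rag1-/- label (log2 fold change -0.35, standard error 0.13, adjusted p = 0.382 by limma-trend). The higher genes were Nkx2-2, a homeodomain factor of ventral progenitors and oligodendrocyte precursors, and En1, a homeodomain factor of the midbrain and rostral hindbrain. Nkx2-2 was at 11.1, 10.9 and 10.6 CPM in WT and at 12.7, 11.9 and 11.97 CPM in the other group (log2 fold change 0.16, standard error 0.07, adjusted p = 0.404 by limma-trend). En1 was at 9.68, 8.59 and 6.73 CPM against 10.4, 9.28 and 11.1 CPM (log2 fold change 0.31, standard error 0.13, adjusted p = 0.429 by limma-trend), with overlapping groups.

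The 13 synthesis and handling genes had a median span of 1.29-fold over the 6 libraries, with Tph1 at 7.23-fold and Slc17a8 at 5.40-fold. Ddc, the decarboxylase that completes serotonin synthesis and also serves catecholamine neurons, was at 40.9, 40.5 and 33.3 CPM in WT and at 48.3, 42.4 and 34.3 CPM under the Rag1-/- label. Slc18a2, the vesicular monoamine transporter shared by the same cell types, was at 43.2, 45.1 and 29.3 CPM in WT and at 48.3, 38.1 and 32.2 CPM under the Rag1-/- label. For each of these 2 genes the highest library was replicate 1 labelled Rag1-/- and the lowest were the 2 libraries numbered 3, as for Tph2, over spans of 1.45-fold and 1.65-fold. Maoa, the monoamine oxidase that prefers serotonin, lay between 37.1 and 42.5 CPM in all 6. Tph1, the tryptophan hydroxylase of the pineal gland and the gut, reached 0.779 CPM in WT replicate 1 against 0.108 to 0.201 CPM elsewhere, and the pineal marker Crx was also highest there, at 0.189 CPM (about 8 reads) against no more than 0.0863 CPM elsewhere. The pineal markers Aanat and Asmt were highest in other libraries and did not exceed 0.230 CPM, and the part of pineal tissue in the Tph1 level was not tested. Gata2, the partner of Gata3 in this lineage, lay between 8.68 and 10.9 CPM. The log2 fold changes of Ddc, Slc18a2, Maoa, Tph1 and Gata2 had adjusted p between 0.640 and 0.977 by limma-trend.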

How the data were processed

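RNA sequencing of 6 mouse brainstem samples (3 WT, 3 Rag1-/-) was read from the deposited table. Per the labels and the study's methods, the authors aligned reads to mm10 with STAR 2.5.3a, counted them on RefSeq transcripts in Partek Flow and deposited CPM, with a lowest value of 0.0001 in every library; filters before deposit are not given in the sources used here. Columns were matched to samples by title. The members and gene lists were chosen with earlier results of these data known.

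The CPM of 1 read was estimated from low values. Of the low values, 85.2% to 86.5% lay within 0.1 read of a whole multiple, which is too few to recover counts, so no count test was run, and read numbers are approximate. Intervals and floors from them cover counting error only.

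The 16762 genes averaging 0.1 CPM or more were tested as log2(CPM + 0.1) with limma-trend (limma 3.58.1, R 4.3.3) and Benjamini-Hochberg adjustment over all of them. A fold change on this scale understates that of low genes. The fit was tested on simulated data with independent noise, which does not cover spread that genes share within a library. Single values had exact two-sided permutation tests (scipy 1.17.1). Nothing in the labels separates culture or litter, and p-values measure the spread between these samples. Alternatives were other pseudocounts, filters, scalings and variance models, a replicate block, a term for Xist over 100 CPM, and libraries left out. Genes named were the members, pathway genes whose unadjusted p was 0.05 or less, the fixed Ddc, Slc18a2, Maoa, Tph1 and Gata2, marker lists, and the 5 genes most like Tph2. Exon length came from the GENCODE M21 transcript nearest to the deposited span. Promoter sequences are from RefSeq (GRCm38.p6), which has the coordinates of mm10.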

Additional observations from a re-analysis of the deposited data

How the results depend on the processing

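The number of serotonin neuron genes with an adjusted p under 0.05 was 0, and the number of other pathway genes was 0, in limma-trend and in all 17 alternatives. Members with an unadjusted p of 0.05 or less numbered 0; there was 1 with ordinary per-gene variance and 1 when limma ran without a trend (Htr1b in each), 2 with the term for Xist over 100 CPM (Gata3 and Htr2c), and 1 with WT replicate 3 and replicate 2 labelled Rag1-/- both left out (Htr2c), an alternative chosen after the data were seen. Leaving out 1 library gave from 0 to 1 (Htr5b without WT replicate 1, Htr2c without WT replicate 3). For the other pathway genes this number was 3; it was 4 with the term for Xist and 4 after rescaling by the median of ratios, 1 with the replicate block and from 1 to 3 with 1 library left out.

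Of 169 values of single members under the alternatives, 0 had an adjusted p under 0.05 and 21 had the opposite direction. With 1 library left out, log2 fold changes ranged from -0.32 to 0.79 for Tph2, -0.29 to 0.70 for Slc6a4, -0.22 to 0.94 for Fev, -0.18 to 0.31 for Lmx1b, -0.066 to 0.26 for Gata3, -0.17 to 0.079 for Maob, -0.10 to 0.13 for Htr1a and -0.14 to 0.090 for Htr2c. With the 2 libraries of high cerebellar markers left out, they were -0.17 for Tph2, -0.18 for Slc6a4, -0.085 for Gata3, -0.067 for Htr1a and -0.18 for Htr2c. Htr1b and Htr5b kept their direction in all 17 alternatives. The cause was not tested. Deviations from the group means correlated across genes at 0.0926, -0.220 and -0.0183 between samples of equal number, so the samples share only a number, and the replicate block gave 0 members past either threshold. Lmx1b was not tested at a mean CPM of at least 1. Counting error was largest for Fev and Lmx1b, whose lowest libraries held about 23 and 20 reads.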
